A study of Mus musculus with 20 samples.

Results

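The genes of the mitochondrial respiratory chain were examined in mouse liver, where 40 of them were measured among 11647 named genes. They were all genes whose single symbol in the platform annotation marks a subunit or assembly factor of complexes I to V or cytochrome c (names beginning with Nduf, Uqcr, Cox4 to Cox8 or Atp5, with Sdha to Sdhd, Cycs and Cyc1), with the probes of one symbol averaged. The 40 genes rested on 48 probes. Complex I was covered by 14 of the 41 genes in the mouse gene table, its assembly factors of the Ndufaf family by 3 of 8, complex IV by 14 of 18 and complex V by 9 of 17. Of complex II, complex III and cytochrome c, 0 of 4, 0 of 9 and 0 of 1 genes carried a name in the annotation used, so the results concern complexes I, IV and V alone. A list of the 13 subunits encoded by mitochondrial DNA was also measured in 0 of 13 genes.

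The study compared 4 groups of 5 gonadectomized C57BL/6J mice of the cross known as the core genotypes, in which Sry, the testis-determining gene, is lost from the Y chromosome and carried as an autosomal transgene. XXM animals were labelled XX Sry and XYM animals XY-Sry, and both were gonadal males, which carried the transgene. XXF animals were labelled XX and XYF animals XY-, and both were gonadal females without it. All 4 groups were fed a chow of 4% fat. Gonads were removed at 8 weeks and livers taken at 12 weeks, the food having been withdrawn 12 h earlier, so gonadal type stands for the Sry transgene and for gonads that were no longer present. Each liver was hybridised on its own array against 1 common liver pool, and a value is the log2 ratio of that liver over the pool. A value of 0 is thus the level of the pool, and levels of different genes cannot be set against each other. Animals are named by group and number, as in XXM 38.

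The respiratory chain passes electrons from NADH and succinate to oxygen and uses the energy to pump protons across the inner mitochondrial membrane. Complex I takes electrons from NADH, complex IV (cytochrome c oxidase) hands them to oxygen, and complex V (ATP synthase) lets the protons flow back to make ATP. Liver is rich in mitochondria and in the fasted state burns fatty acids, whose oxidation feeds this chain. Nuclear genes of the chain are known to share promoter sites for the factors NRF1, GABP, ERR alpha and YY1, which act with the coactivator Ppargc1a.

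Promoter windows of 250 bases before to 50 bases after the transcription start were read from RefSeq (build GRCm38.p6) for 33 of the 40 genes, 2 of which had 2 windows. The table holds 27025 genes. On both strands, the GABP or ETS core CCGGAAG was present in 10 of the 33 genes (30.3%) and in 9.93% of all genes. The NRF1 core GCATGCG was present in 4 (12.12%, against 4.01%), the YY1 core AAGATGG in 5 (15.15%, against 7.28%) and the ERR alpha core, AAGGTCA, in 2 (6.06%, against 5.38%). At least 1 of these 4 motifs, which were searched separately, was found in 15 of the 33 genes (45.45%) and in 23.82% of all genes. These are letter matches, not known sites, and no test was made of them. The 250 bases before the start are shown for 3 genes described below because they had an unadjusted p under 0.05 (Ndufb6, Atp5h and Ndufs8). Ndufs1 and Cox4i2 also had such a p but were among the genes without a window. Atp5k is shown too, as it reached the highest value of any complex V gene. Capitals mark matches to CCGGAAG or its complement in Ndufb6 and Atp5h and a pair of overlapping matches to GCATGCG, 1 on each strand, in Atp5k. The shown part of Ndufs8 held no match, and its match to CCGGAAG ended after the start. Atp5k also had 1 match to CCGGAAG and 1 to AAGGTCA that ended after the start.
Ndufb6, chr4:40279422-40279671 on the minus strand: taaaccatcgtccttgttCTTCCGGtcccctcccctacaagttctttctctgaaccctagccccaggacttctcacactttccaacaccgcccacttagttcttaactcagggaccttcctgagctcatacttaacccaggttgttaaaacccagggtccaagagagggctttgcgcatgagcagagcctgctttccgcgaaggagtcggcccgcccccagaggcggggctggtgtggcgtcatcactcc
Atp5h, chr11:115419920-115420169 on the minus strand: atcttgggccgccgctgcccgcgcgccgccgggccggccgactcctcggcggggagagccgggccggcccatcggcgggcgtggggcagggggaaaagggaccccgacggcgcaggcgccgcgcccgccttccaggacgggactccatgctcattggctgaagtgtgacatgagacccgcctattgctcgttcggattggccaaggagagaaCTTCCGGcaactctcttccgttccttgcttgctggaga
Atp5k, chr5:108434400-108434649 on the minus strand: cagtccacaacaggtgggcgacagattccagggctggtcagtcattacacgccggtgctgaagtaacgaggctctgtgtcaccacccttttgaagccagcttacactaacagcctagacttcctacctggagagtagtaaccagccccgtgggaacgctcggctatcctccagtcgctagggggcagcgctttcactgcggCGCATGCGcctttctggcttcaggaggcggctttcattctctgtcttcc
Ndufs8, chr19:3912775-3913024 on the minus strand: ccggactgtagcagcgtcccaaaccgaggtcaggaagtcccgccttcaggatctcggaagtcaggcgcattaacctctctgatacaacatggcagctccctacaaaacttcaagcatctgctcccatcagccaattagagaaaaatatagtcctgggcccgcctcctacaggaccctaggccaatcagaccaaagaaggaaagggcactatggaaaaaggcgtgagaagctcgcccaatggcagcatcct

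Values of all 40 genes were present on all 20 arrays, and 0 of them lay at the limit of 2 log10 units that the deposited values carry. The SD of log2 ratios over all features ran from 0.175 to 0.341 between arrays and was above 0.3 on 4 arrays of gonadal females (XXF 2, XXF 6, XYF 3, XYF 12), called arrays of wide spread here. Correlation coefficients of array pairs ran from -0.55 to 0.68 and lay under -0.3 in 11 of 190 pairs. The library labelled XYF 30 had Eif2s3y at -3.90, inside the range of the 10 XX livers (-5.28 to -2.46) and below that of the other 9 XY livers (0.57 to 1.34). It stayed in the group of its label, and values that leave it out are given beside the XX and XY results. Markers of Kupffer cells and macrophages lay lower in gonadal males for 11 of 11 genes. Of these, 6 passed limma's adjusted threshold, as did 3.75% of all features. Their mean per array ran from -0.97 to 0.37 (median -0.69) in gonadal males and from -0.23 to 1.57 (median 0.02) in gonadal females. Of the lymphocyte markers 7 of 9 lay lower in gonadal males and 5 passed. Of the erythroid markers 3 of 4 lay lower and 1 passed, and of the hepatocyte markers 3 of 6 lay lower and 0 passed. In bulk liver, fewer cells of a type and less RNA per cell cannot be told apart, and the part of these shifts in the values of the respiratory chain genes and of the other lists was not tested.

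The first comparison asked whether gonadal type sets the level of respiratory chain transcripts in liver. None of the 40 genes passed limma's test at an adjusted p of 0.05 for gonadal males against gonadal females, in a comparison that called 3.75% of all 21556 features. At an unadjusted p under 0.05 there were 4 genes (10% of the 40), against 17.8% of all features. This count was 0 without XXF 2, 1 without XYM 19, XYF 12 or XYF 3, and 2 without XXM 38, XXM 18, XYM 27, XYM 5 or XXF 35. In these fits the share of all features with such a p lay between 15.2% and 17.1%. With 1 animal left out, between 391 features (without XYM 19) and 1129 (without the library labelled XYF 30) were called, beside 808 on all arrays, and the count was also lower by over 1.5 times without XXM 31 (402), XXM 18 (479), XXF 2 (491) or XYM 27 (531). Differences ran from -0.18 for Ndufs8 to 0.24 for Ndufs1, with 18 genes above 0 and 22 below. Their median was -0.01, beside 0.01 over all features. The 95% intervals of all 40 differences lay between -0.34 and 0.45, that is, between 1.27-fold lower and 1.37-fold higher in gonadal males. For 39 of the 40 genes the interval lay within 1.3-fold in both directions.

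**Figure D1:**
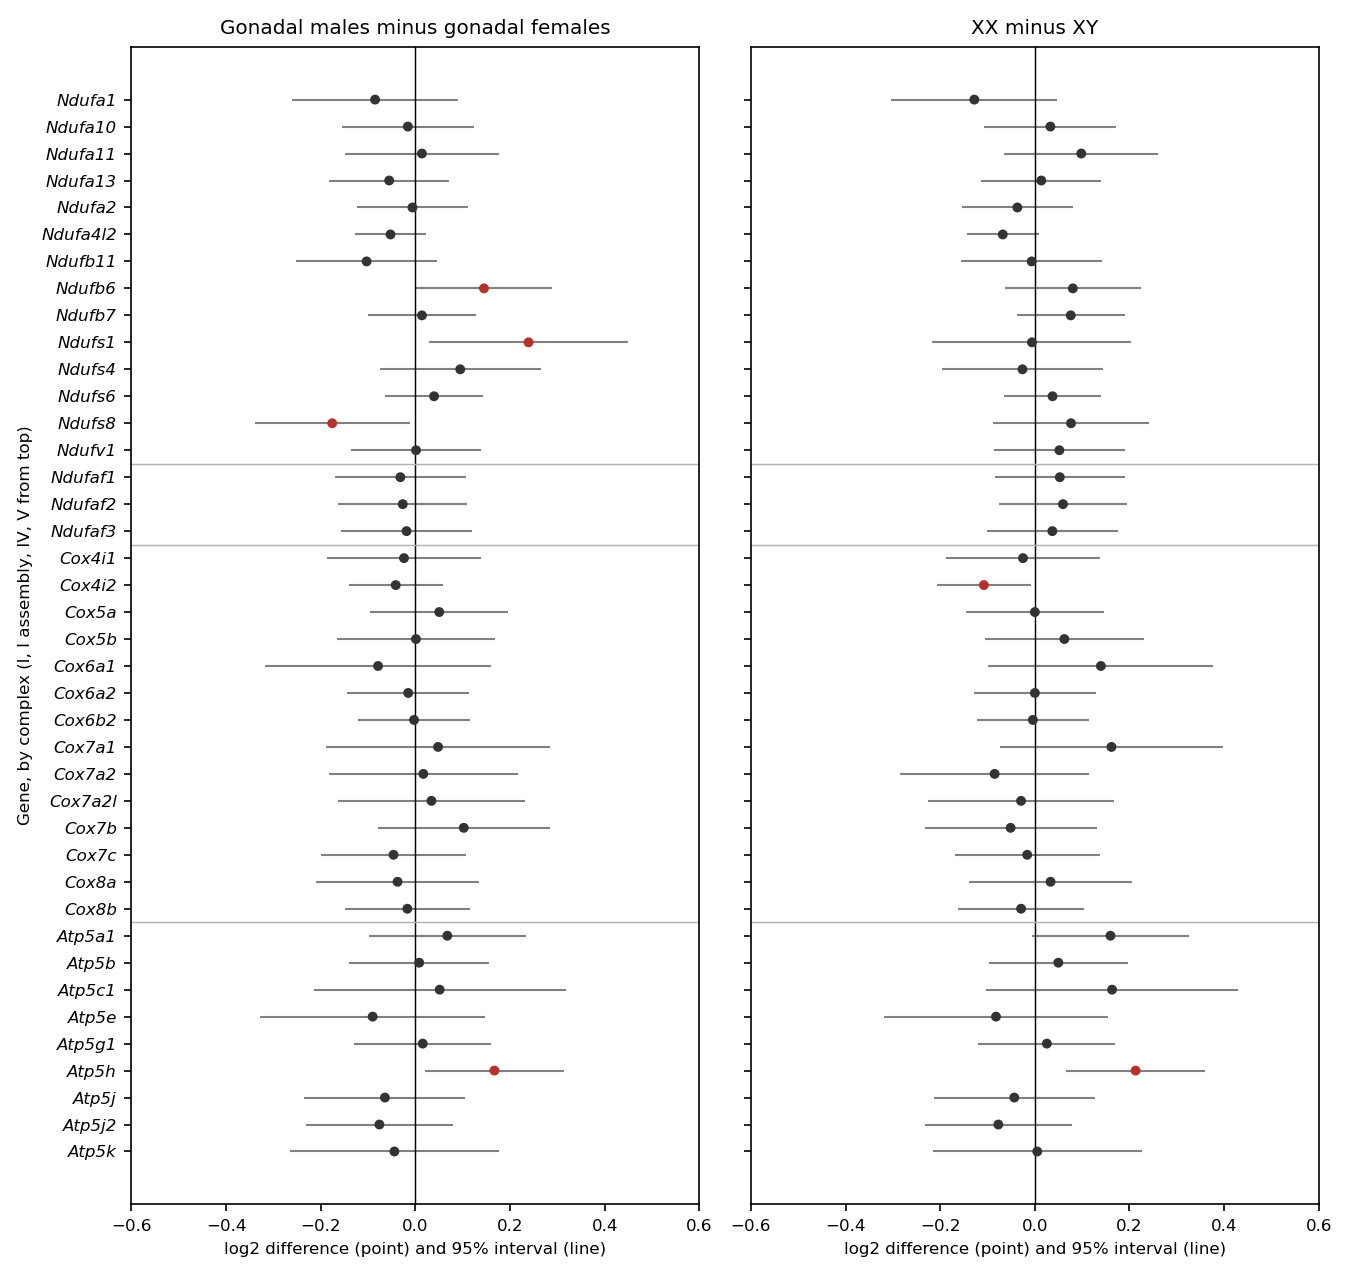
Log2 differences (points) with limma's 95% intervals (lines) for the 40 respiratory chain genes, in rows grouped by complex, for gonadal males against gonadal females (left) and XX against XY (right). Red points have an unadjusted p under 0.05. The points lie between -0.18 and 0.24 on the left and between -0.13 and 0.21 on the right, and no gene passed the adjusted threshold.

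In complex I, 7 of 14 genes were above 0 and 7 below, and the median difference was -0.00. Ndufs1 encodes the largest core subunit, which carries iron-sulfur clusters of the NADH-oxidising arm. It stood at 0.03, 0.24, 0.05, 0.17 and 0.02 in XXM livers and at 0.25, 0.16, -0.31, 0.31 and -0.05 in XYM livers. In gonadal females it stood at -0.02, 0.20, -0.28, -0.17 and -0.60 (XXF) and at -0.34, 0.27, -0.26, -0.08 and -0.24 (XYF). All XXM livers were above the pool and 7 of the 10 gonadal females lay from -0.08 to -0.60, but XXF 6 and the library labelled XYF 30 reached the upper male values and XYM 20 lay among the low female ones. The difference was 0.24 ± 0.10 (SE, 1.18-fold, adjusted p = 0.211 by limma). With a weight estimated for each array it was 0.28 and its adjusted p 0.0423, which made it the only call among the 40 genes in any fit for this comparison, and without the library labelled XYF 30 it was 0.29 (adjusted p = 0.0811).

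Ndufs8, a core subunit whose iron-sulfur clusters lie close to the site of ubiquinone reduction, went the other way. It stood at 0.04, -0.21, 0.10, -0.22 and 0.28 in XXM and at -0.18, -0.25, 0.06, 0.05 and -0.18 in XYM. In gonadal females it stood at -0.07, -0.02, 0.12, 0.31 and 0.42 (XXF) and at 0.07, 0.05, -0.01, 0.34 and 0.04 (XYF). XXM 18, XXM 31, XYM 19, XYM 27 and XYM 14 lay below every gonadal female, and the other gonadal males overlapped the females. The difference was -0.18 ± 0.08 (SE, adjusted p = 0.242 by limma). Ndufb6, an accessory subunit of the membrane arm, was between 0.03 and 0.22 in all 5 XXM livers. It was at 0.16, 0.04, -0.10, 0.15 and -0.10 in XYM, at -0.09, 0.16, -0.08, -0.05 and -0.11 in XXF, and at -0.44, 0.13, -0.08, -0.21 and 0.17 in XYF. The XXM livers were thus all above the pool, while 4 of 5 XXF livers lay slightly below it. The difference was 0.14 ± 0.07 (SE, adjusted p = 0.279). Its 2 probes gave 0.18 and 0.11 and stood a median of 0.13 apart on the same array, about the size of the difference itself.

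The differences of these 3 genes were smaller without the 4 arrays of wide spread, all of them from gonadal females. The difference was then 0.20 for Ndufs1, -0.12 for Ndufs8 and 0.09 for Ndufb6, and their unadjusted p were then 0.0593, 0.159 and 0.136. In that fit 1 of the 40 genes had an unadjusted p under 0.05, against 17.1% of all features. It was Cox7a2, a complex IV subunit, whose difference rose from 0.02 to 0.18 ± 0.07 (SE, unadjusted p = 0.0226, adjusted p = 0.198 by limma). The remaining complex I genes had smaller differences. Ndufa4l2, a paralog of Ndufa4 known for its induction by hypoxia, was placed in complex I by its name alone. It had the narrowest spread of the 40 genes, with an SD of 0.0777 over the 20 arrays. It stood at -0.05 ± 0.04 (SE). The 3 assembly factors Ndufaf1 (-0.03), Ndufaf2 (-0.03) and Ndufaf3 (-0.02) had an SE of 0.07, 0.06 and 0.07, so their values cannot be told from 0.

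**Figure D2:**
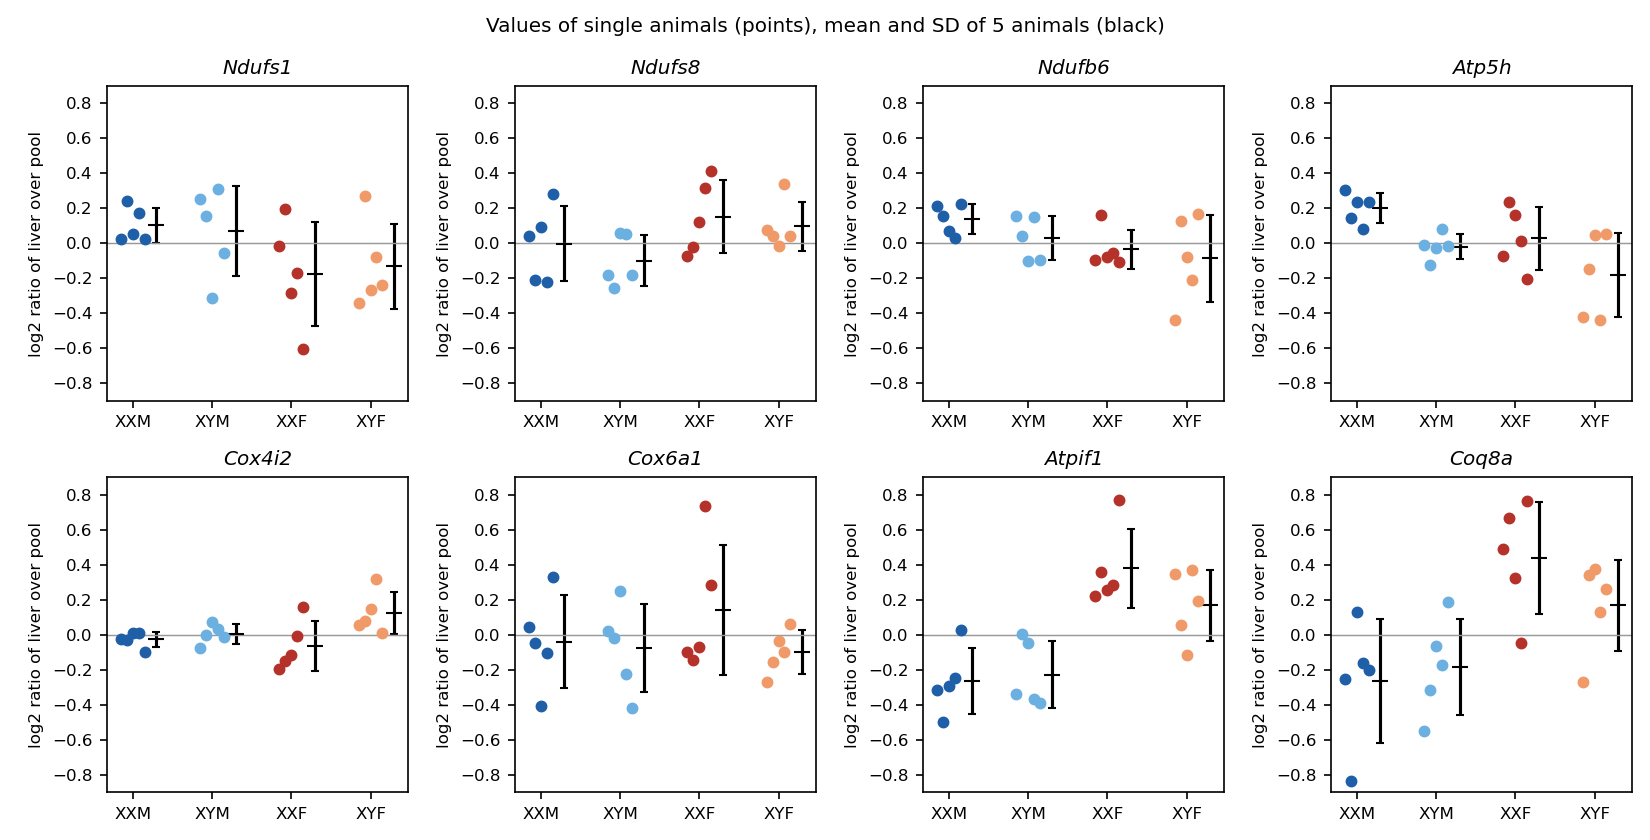
Log2 ratio of liver over pool in single animals (points, 5 per group) with the mean and SD of each group (black) for 6 respiratory chain genes and for Atpif1 and Coq8a. Atp5h ran from 0.0844 to 0.30 in XXM, -0.12 to 0.0801 in XYM, -0.20 to 0.24 in XXF and -0.44 to 0.06 in XYF. The ranges of XXM and XYM did not overlap, as for 1.01% of all features. Atpif1 and Coq8a had means of -0.25 and -0.22 in gonadal males and 0.28 and 0.30 in gonadal females.

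In complex IV, none of the 14 genes had an unadjusted p under 0.05, and differences ran from -0.08 to 0.10 with a median of -0.01. Several of its subunits exist in a form found in most tissues and a form of heart, muscle, lung or testis, and both kinds were on the array. The liver forms Cox6a1 and Cox7a2 were at -0.08 ± 0.11 and 0.02 ± 0.10 (SE), and their muscle partners Cox6a2 and Cox7a1 at -0.02 ± 0.06 and 0.05 ± 0.11. Cox4i1 (-0.02 ± 0.08) and Cox8a (-0.04 ± 0.08) likewise differed from Cox4i2 (-0.04 ± 0.05) and Cox8b (-0.02 ± 0.06) by less than their errors. The testis form Cox6b2 was at -0.00 ± 0.06. Cox7a2l, a factor that helps to join complexes into supercomplexes, was at 0.03 ± 0.09. For forms hardly used in liver the ratios may be close to background, since signal over background was not analysed here.

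Cox6a1 spread most in complex IV, over 1.15 log2 units between XYM 14 (-0.42) and XXF 35 (0.74). It was also low in XXM 9 (-0.41) and high in XXM 32 (0.33). Cox7a1 ran from -0.51 in the library labelled XYF 30 to 0.38 in XXF 6. Its SD over the 20 arrays was 0.261, beside a median of 0.167 for the 40 genes and of 0.158 for all features.

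In complex V, 5 of 9 genes were above 0 and the median difference was 0.01. Atp5h, subunit d of the stalk that holds the catalytic head in place, stood at 0.30, 0.14, 0.24, 0.08 and 0.24 in XXM and at -0.01, -0.12, -0.03, 0.08 and -0.01 in XYM. It stood at -0.07, 0.24, 0.16, 0.02 and -0.20 in XXF and at -0.42, -0.14, 0.05, -0.44 and 0.06 in XYF. All 5 XXM livers lay above the pool, and the lowest values were those of XYF 12 and XYF 3, both arrays of wide spread. Gonadal males differed from gonadal females by 0.17 ± 0.07 (SE, 1.12-fold, adjusted p = 0.213 by limma), and by 0.08 without the 4 arrays of wide spread. Its 2 probes gave 0.19 and 0.15 and stood a median of 0.05 apart.

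The other ATP synthase genes had differences between -0.09 (Atp5e, the epsilon subunit of the central stalk) and 0.07 (Atp5a1, the alpha subunit of the catalytic head). Without the 4 arrays of wide spread that of Atp5e was 0.12 (unadjusted p = 0.176), and 13 of the 40 genes changed sign. Atp5b, the catalytic beta subunit, was at 0.01 ± 0.07 (SE), and Atp5g1, a gene for the proton-carrying ring, at 0.02 ± 0.07. Atp5c1, the gamma subunit that turns inside the head, had the widest spread of the 40 genes (SD 0.292) and was read by 4 probes. Probes 1 and 2 of Atp5c1 had an SD of 0.208 and 0.188 over the arrays and stood a median of 0.08 apart, while probes 3 and 4 had an SD of 0.416 and 0.450 and stood 0.05 apart. Between the pairs the median gap reached 0.29. Their differences between gonadal types were 0.01, -0.00, 0.07 and 0.13, so the gene's average of 0.05 ± 0.13 (SE) joins 2 kinds of probe and turned to -0.01 without XYF 12. By contrast the probe pairs of Ndufb11 and Atp5k stood a median of 0.02 and 0.03 apart.

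The second comparison asked whether XX and XY livers differ, whatever the gonad. None of the 40 genes passed limma's adjusted test, which called 0.0278% of all features. An unadjusted p under 0.05 was reached by 2 genes (5.0%), against 5.06% of all features. Without the library labelled XYF 30 the test called 13 features in place of 6, still 0 of the 40 genes, and 3 of the 40 had an unadjusted p under 0.05, against 6.62% of all features. The 95% intervals lay between -0.32 and 0.43, or 1.25-fold lower to 1.35-fold higher in XX, and 38 of 40 lay within 1.3-fold. The median was 0.01, beside -0.01 for all features, and 23 genes were above 0.

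In this comparison Atp5h was the gene with the smallest p among the 40. Its XX livers ran from -0.20 to 0.30 with a median of 0.15 and its XY livers from -0.44 to 0.08 with a median of -0.02. A total of 7 XX livers lay above every XY liver, and XYF 12 and XYF 3 lay below every XX liver. The difference was 0.21 ± 0.07 (SE, 1.16-fold, unadjusted p = 0.00689, adjusted p = 0.914). It was 0.22 (adjusted p = 0.749) without the library labelled XYF 30 and 0.13 without the 4 arrays of wide spread. Among gonadal males alone, where none of those arrays falls, the lowest XXM liver (0.0844) lay just above the highest XYM liver (0.0801), so the ranges did not overlap, and the difference was 0.22 ± 0.10 (SE, unadjusted p = 0.0406, adjusted p = 1). Within gonadal males limma called 0.00464% of features, and an unadjusted p under 0.05 was found for 1 of the 40 genes against 2.06% of all features. Without the library labelled XYF 30 the called features went from 1 to 8, and 1 of the 40 genes again had such a p, against 2.23%. Atp5h was the only 1 of 40 genes whose ranges did not overlap between XXM and XYM, against 1.01% of all features. In no other pair of groups sharing a sex chromosome type or a gonadal type did any of the 40 genes have ranges apart, against 4.38% of all features for XXM and XXF, 1.48% for XYM and XYF and 0.292% for XXF and XYF.

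Cox4i2, the form of its subunit that is found mainly in lung, was lower in XX by 0.11 on the log2 scale (-0.11 ± 0.05 SE, adjusted p = 0.914), and stood at -0.11 without the library labelled XYF 30. The gonadal males stood near the pool, between -0.10 and 0.01 in XXM and between -0.07 and 0.08 in XYM. The XXF livers stood at -0.20, -0.15, -0.11, -0.01 and 0.16 and the XYF livers at 0.06, 0.08, 0.15, 0.32 and 0.01. The values of XXF 29, XXF 6, XXF 21 and XXF 35 were thus below those of all XYF livers, and that of XXF 2 was above 4 of them. Within gonadal females the difference was -0.19 ± 0.07 (SE, adjusted p = 0.766). Limma called 0.0% of features within gonadal females, where 1 of the 40 genes had an unadjusted p under 0.05 against 6.08% of all features. Without the library labelled XYF 30, 8 features were called, 0 of them among the 40 genes, and 1 of the 40 had such a p, against 6.03%.

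Genes on the X chromosome were looked at separately because XX cells carry a second copy, which is silenced for most genes. Ndufa1, a small membrane-arm subunit, ran from -0.23 to 0.46 in XX livers (median -0.10) and from -0.14 to 0.47 in XY livers (median 0.03). Its difference was -0.13 ± 0.08 (SE, adjusted p = 0.917), -0.14 without the library labelled XYF 30. Ndufb11, also of the membrane arm, was at -0.01 ± 0.07 (SE), and turned to 0.01 without that library. Cox7b, a complex IV subunit, was at -0.05 ± 0.09, and at -0.02 without it. The ranges of XX and XY livers overlapped for all 3 genes, and the upper 95% bounds of their differences lay between 0.05 and 0.14.

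The effect of gonadal type did not differ detectably between XX and XY livers. The interaction called 0 of the 40 genes and 0.0% of all features, and an unadjusted p under 0.05 was found for 0 of the 40 genes and 2.58% of all features. Without the 4 arrays of wide spread these were 3 of the 40 genes and 7.69% of all features, with 0 called. Its intervals were wider, from -0.68 to 0.63. Within XX livers 0 of 40 genes were called, against 0.645% of all features, and within XY livers 0 of 40, against 0.158%. At an unadjusted p under 0.05 the counts were 0 within XX, against 12.1% of features, and 0 within XY, against 9.29%. Without the library labelled XYF 30 the interaction count was again 0 of the 40 genes, against 2.17%. Within XY it was then 1 gene, Ndufs1, against 11.9%, with 23 features called in place of 34 and 0 of the 40 genes. Over all alternatives such counts reached 3 within XX (without XXF 6, against 12%) and 5 within XY (with array weights, against 16%).

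Most of the variation among these genes was between animals of the same group. The median SD within groups was 0.165 for the 40 genes and 0.154 for all features. Over gonadal females the median SD was 0.185 and over gonadal males 0.136, beside 0.171 and 0.125 for all features, and over the 16 arrays of narrower spread it was 0.137, beside 0.139. The difference in spread between gonadal types was not tested. The mean of all 40 genes was highest on XYF 3 (0.16), XXM 32 (0.12) and XXF 2 (0.11) and lowest on XXF 29 (-0.14), XYF 12 (-0.13) and XYM 14 (-0.13). A total of 33 of the 40 genes lay above the pool on XXF 2 and 3 on XYM 14, whereas the share of all features above it was 57.4% and 48.1%. High and low arrays thus occurred in both gonadal types and with both kinds of sex chromosomes.

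**Figure D3:**
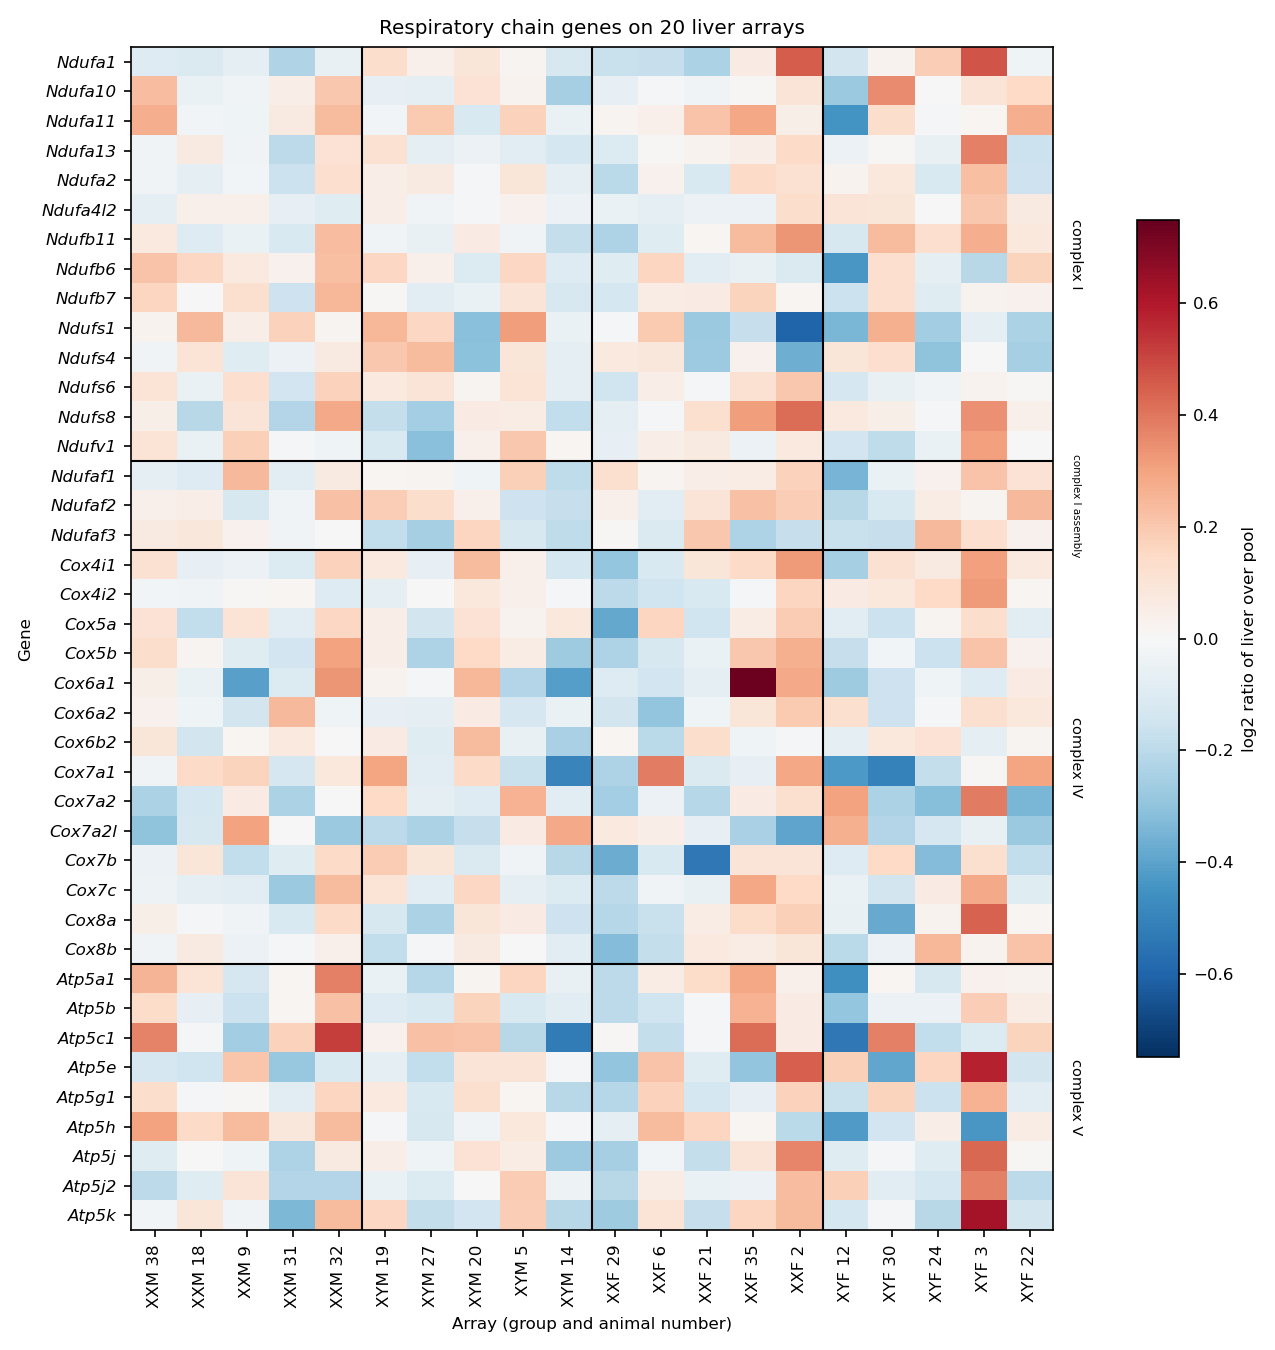
Log2 ratio of liver over pool (colour) for the 40 respiratory chain genes (rows, by complex) on the 20 arrays (columns, by group). Columns such as XXM 32, XXF 2 and XYF 3 are mostly red (30, 33 and 32 of 40 genes above 0) and XYM 14 and XXF 29 mostly blue (3 and 8 of 40), with single genes that go the other way.

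The complexes moved together on some arrays and apart on others. On XYF 3 the means of complexes I, IV and V were 0.15, 0.15 and 0.22, and on XYM 14 they were -0.10, -0.13 and -0.16. On the library labelled XYF 30 complex I stood at 0.10 and complex IV at -0.11. Within a shifted array, single genes went against the rest. On XXF 2, Ndufs1 (-0.60), Ndufs4 (-0.37) and Cox7a2l (-0.40) were low while Ndufa1 (0.46), Atp5e (0.45) and Ndufs8 (0.42) were high. On XYF 3, Atp5k (0.62), Atp5e (0.58) and Ndufa1 (0.47) were high and Atp5h was at -0.44. On XYF 12, Atp5c1 (-0.54), Atp5a1 (-0.46), Ndufa11 (-0.45) and Ndufb6 (-0.44) were low, but Cox7a2 (0.30) and Cox7a2l (0.26) were above the pool. XYF 12 also had the highest mean of Kupffer cell markers of the 20 arrays (1.57), and XYM 14 the highest of the gonadal males (0.37). The part of those cells in the low values of XYF 12 and XYM 14 was not tested.

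Genes of fatty acid oxidation and ketogenesis, the pathway that supplies the chain in fasting, did not follow it on these arrays. Their mean over 15 measured genes was -0.94 on XXF 6, -0.63 on XXF 2 and -0.46 on XYF 3, where the 40 respiratory chain genes averaged -0.01, 0.11 and 0.16. On the other 17 arrays it ran from -0.21 to 0.28. The 3 low arrays are gonadal females of both sex chromosome types and are among the 4 arrays of wide spread. Of the 15 genes, 0 passed limma's test for gonadal type and 4 had an unadjusted p under 0.05, against 17.8% of all features. The median difference of the 15 genes was 0.19, higher in gonadal males. The array means of the list went the other way, with a median of 0.03 in gonadal males and 0.14 in gonadal females. The list's median difference without the 3 low arrays was not computed.

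**Figure D4:**
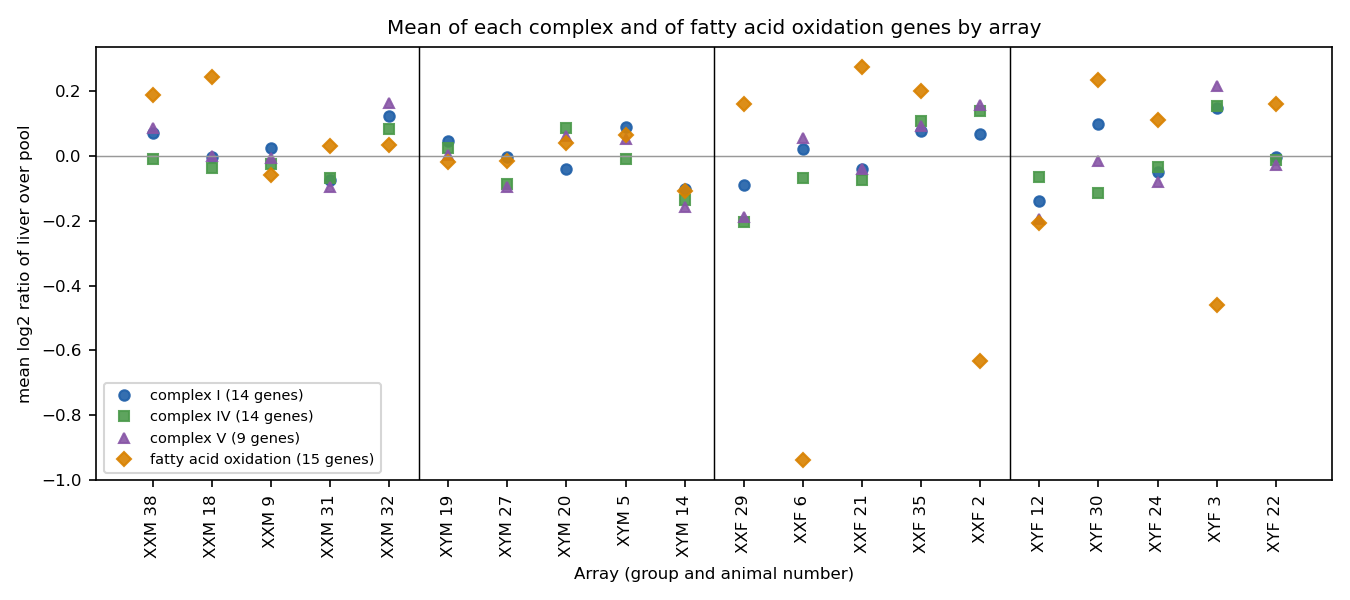
Mean log2 ratio of liver over pool on each of 20 arrays for complexes I, IV and V and for 15 genes of fatty acid oxidation and ketogenesis. The 3 complexes stay between -0.20 and 0.22 on every array, while the fatty acid oxidation genes fall to -0.94, -0.63 and -0.46 on XXF 6, XXF 2 and XYF 3.

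Other genes tied to the chain were taken from lists of known function. Of 15 measured genes in the list of assembly and import factors outside the naming rule (44 were listed), 1 was called for gonadal type, against 3.75% of all features. It was Atpif1, which was put on this list but is neither an assembly nor an import factor. Its protein binds ATP synthase and blocks its reverse reaction, ATP hydrolysis. Atpif1 stood at -0.31, -0.50, -0.29, -0.25 and 0.03 in XXM and at -0.34, 0.01, -0.04, -0.37 and -0.39 in XYM. It stood at 0.22, 0.36, 0.26, 0.29 and 0.77 in XXF and at 0.35, 0.06, -0.11, 0.37 and 0.19 in XYF. Only XYF 24 among the gonadal females lay below the pool, and it overlapped the 3 highest gonadal males. Atpif1 was 1.43-fold lower in gonadal males (-0.52 ± 0.09 SE, adjusted p = 0.00267 by limma), and its adjusted p was between 0.00148 and 0.0151 in every alternative run. The 9 measured genes of complex V itself had no call and differences between -0.09 and 0.17 in the same comparison. No test compared Atpif1 with those genes.

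Of 9 measured genes for electron entry outside complexes I and II and for coenzyme Q synthesis (20 were listed), 1 was called, against 3.75% of all features. Coq8a, an atypical kinase-like protein needed to make coenzyme Q, was 1.44-fold lower in gonadal males (-0.53 ± 0.13 SE, adjusted p = 0.0279). It ran from -0.84 to 0.19 in gonadal males (median -0.19) and from -0.27 to 0.76 in gonadal females (median 0.33). The call was lost without XYM 19 (-0.48, adjusted p = 0.0603), without XYM 27 (-0.51, 0.0520) and without XXF 2 (-0.49, 0.0562). Of 14 measured genes for uncoupling, antioxidant defence and the outer membrane channel (16 were listed), 1 was called, against the same 3.75%. This was Vdac3, a channel of the outer mitochondrial membrane. It was 1.20-fold higher in gonadal males (0.26 ± 0.07 SE, adjusted p = 0.0356), with males from -0.01 to 0.25 (median 0.17) and females from -0.49 to 0.10 (median -0.03). This call was lost without any 1 of XXM 38, XXM 18, XXM 31, XXM 32, XYM 19, XYM 27, XYM 5, XXF 2, XYF 12 or XYF 3, with values from 0.22 to 0.26 and adjusted p from 0.0519 to 0.0726, and it was lost too when all 4 arrays of wide spread were left out (0.14, adjusted p = 0.0796) or each array was centred on its median (0.25, adjusted p = 0.0516).

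Among 19 measured regulators of mitochondrial biogenesis (25 were listed), 0 were called, against 3.75% of all features. Of the 19, 15 were above 0, with a median of 0.09, beside 11568 of 21556 features and a median of 0.01. An unadjusted p under 0.05 was found for 4 of the 19, against 17.8% of all features. The mean of this list was lowest on XYF 3 (-0.23), XXF 2 (-0.22), XYF 12 (-0.16) and XXF 6 (-0.16), the arrays of wide spread. Its median difference without them was not computed. Ppargc1a, the coactivator induced in fasted liver, ran from -0.60 to 0.67 in gonadal males (median 0.11) and from -1.64 to 0.30 in gonadal females (median -0.54). The lowest livers were XXF 2 (-1.64), XXF 21 (-1.36) and XXF 6 (-0.95). The difference was 0.67 ± 0.22 (SE, adjusted p = 0.0962), and it passed the threshold without XXF 29 (0.77, adjusted p = 0.0466) and with array weights (0.79, adjusted p = 0.0240). Over all alternatives the difference lay between 0.53, without the 4 arrays of wide spread, and 0.79, and the adjusted p reached 0.284. Of the 8 measured genes of the TCA cycle (14 were listed), which makes NADH for complex I, 0 were called, against the same 3.75%. Of the 8, 7 were above 0, beside the same 11568 of 21556 features, and 2 had an unadjusted p under 0.05, against the same 17.8%. For XX against XY, 0 genes of these lists passed the threshold, against 0.0278% of all features. At an unadjusted p under 0.05 there were 1 of the assembly factors, 2 of the electron entry genes, 2 of the uncoupling genes and 0 of the regulators, TCA cycle and fatty acid oxidation genes, against 5.06% of all features.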

How the data were processed

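Liver RNA in Cy5 was hybridised against a common liver pool in Cy3, per the labels, on 20 arrays of 20 animals. The deposited values were read here as log10 ratios of liver over pool. Neither base nor direction is stated in the file; both were inferred from the Y-linked genes, and background correction and dye normalization are among the steps not given in the sources used here. In the labels the pool is liver of 17 chow-fed mice and in the design text equal shares of each sample's RNA, and it cancels between groups. Values were converted to log2, and were the base another one, all sizes would be scaled alike with the same p-values. Of 23574 probes, 13713 were listed in the platform annotation and 48 named several genes. Averaging the probes of each gene left 11647 named genes beside 9909 unnamed probes, 21556 features in all, with no intensity filter.

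A mean per group was fitted to all features on the 20 arrays (limma 3.58.1, R 4.3.3). The Benjamini-Hochberg adjustment took in all features, and an adjusted p under 0.05 was called. The unadjusted p-values, errors and 95% intervals are limma's. Each array is a separate animal, and the number of animals, 5 per group, limits the precision.

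The respiratory chain genes and the other gene lists were chosen with earlier results of these data known. Differences are named for genes that passed the threshold, for the 3 smallest p for gonadal type and 2 for sex chromosomes per complex, for the 2 widest spreads per complex, for probes that disagree in sign and for tissue forms of a subunit. Of the other lists, called genes among the 3 smallest p were named. Ppargc1a, 1 of the 3 of its list, was chosen after its values were seen, as were the values quoted for single arrays. So were the gonadal type differences of Atp5b, Atp5e, Atp5g1 and Ndufa4l2 and the XX against XY differences of Ndufb11 and Cox7b. The differences of Atp5h within gonadal males and of Cox4i2 within gonadal females were likewise chosen after their values were seen. Alternatives left out each animal, the library labelled XYF 30 or the 4 arrays of wide spread, rescaled arrays, weighted them, changed the eBayes prior, tested probes singly or fitted 2 groups alone.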

Additional observations from a re-analysis of the deposited data

Results flagged for a closer look

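The 40 genes, 4 other genes and 5 means over genes were each tested for outliers in the 4 groups of 5 animals. These cases share arrays and are not independent. In 8 of the 196 cases (4.08%, where chance flags about 1 in 20), 1 animal stood far from the other 4. They fell on XXF 2 and XYF 3 (3 each) and on XXF 6 and XYM 20 (1 each). On XYF 3 the high values were those of Atp5k (0.62, other XYF livers -0.21 to -0.01), Atp5j, a stalk subunit of ATP synthase (0.43, others -0.09 to 0.01), and Ndufs8 (0.34, others -0.01 to 0.08). On XXF 2 Atpif1 was high (0.77, others 0.22 to 0.36), as was Ndufa4l2 (0.13, others -0.07 to -0.04), and Vdac3 was low (-0.35, others 0.03 to 0.10). Ndufb6 was high on XXF 6 (0.16, others -0.11 to -0.05), and Atp5b was high on XYM 20 (0.17, others -0.11 to -0.09). XXF 2, XYF 3 and XXF 6 are among the 4 arrays of wide spread.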

How the results depend on the processing

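The count of called respiratory chain genes stayed at 0 in all 7 comparisons under every alternative run, except for gonadal type with array weights, which called 1 gene, Ndufs1. The median difference of all 40 genes for gonadal type, -0.01, ran from -0.03 to 0.02 over the alternatives, and the interaction median of the complex I assembly factors, -0.06, from -0.11 to 0.01, so these medians changed sign. The gonadal type medians of complexes I (-0.03 to 0.02), IV (-0.03 to 0.02) and V (-0.03 to 0.06) also changed sign. So did the interaction medians of all 40 genes and of these complexes, and the XX against XY medians of complexes I and IV. The gonadal type difference changed sign in 13 of the 40 genes without the 4 arrays of wide spread and in 5 without the library labelled XYF 30. With the 4 arrays of wide spread left out, the gonadal type difference was -0.0758 for Atp5c1, 0.0568 for Atp5j2, 0.0022 for Cox4i2, 0.122 for Atp5e, -0.0129 for Atp5b, 0.0109 for Cox6a2 and 0.0256 for Cox8a. It was -0.0166 for Atp5b with array weights, and 0.00529 for Cox6b2 and -0.00769 for Cox7a2 without the library labelled XYF 30. Over the fits that left out 1 animal, it ran from -0.00898 to 0.111 for Atp5c1 (negative without XYF 12), from -0.0523 to 0.00343 for Ndufaf2 (positive without XYF 22) and from -0.0531 to 0.0138 for Ndufaf3 (positive without XXF 21 or XYF 24). It also crossed 0 for Atp5b (-0.0251 to 0.0416), Atp5g1 (-0.00975 to 0.0476), Cox4i1 (-0.064 to 0.0121), Cox6a2 (-0.0475 to 0.014), Cox6b2 (-0.0351 to 0.0249), Cox7a2 (-0.0212 to 0.0709), Cox7a2l (-0.0137 to 0.0773), Cox8a (-0.086 to 0.0159) and Cox8b (-0.0506 to 0.00831). The XX against XY difference of Ndufb11 ran from -0.0414 to 0.029, turned positive in 8 of these 20 fits and was 0.00806 without the library labelled XYF 30. No paired analysis was possible because all animal numbers differ. Signal over background was not analysed, so how dim a probe was is unknown.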
